A study of Mus musculus with 8 samples.

Results

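The genes described here are the replication-dependent histone genes, which supply the H1, H2A, H2B, H3 and H4 proteins that package newly made DNA. They were measured in spleens of lupus-prone mice and of control mice on a microarray. A row of the array table is 1 probe set, and a row was taken when each gene it names carries a replication-dependent histone name. Such a name was a symbol that starts with H2ac, H2bc, H3c or H4c and a digit, 1 of H1f1 to H1f5, or a gene whose older symbol in RefSeq starts with Hist1h to Hist4h. This gave 55 rows of the 35556 in the table, of which 23410 name a gene. The 55 rows name 55 distinct genes, but not 1 gene each: 31 rows name a single gene and 24 rows name several. By annotated symbol alone 43 rows qualified, and 12 came in through an older symbol (H1f6, H2aw, H2bu1-ps, H2bu2, H4f16 and H2B rows naming several genes).

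Histone mRNAs of this class are made in bulk while DNA is being copied and are removed when copying stops. Their genes lie in clusters, the largest of them on mouse chromosome 13, and most lack introns. Most of the mRNAs end in a short stem-loop in place of a poly(A) tail. SLBP (gene Slbp) binds that stem-loop, and NPAT (gene Npat), a target of cyclin E with CDK2, switches the clusters on at the start of S phase. Replication-independent variants such as H2A.Z are encoded by separate genes with poly(A) tails and are made throughout the cell cycle. In a spleen, dividing cells include germinal centre B cells, plasmablasts, and red cell and neutrophil precursors.

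Splenocyte RNA came from 8 mice, 1 array each, all on C57/B6. The groups were Sle1.3/E2-2het (n = 3), Sle1.3 (n = 3) and WT (n = 2). Sle1.3 mice are labelled as lupus mice, and Sle1.3/E2-2het mice are in addition haplodeficient for E2-2 (a working copy is lost), the transcription factor encoded by Tcf4 that plasmacytoid dendritic cells require. Ages are not given in the sources used here. Spleens were digested with collagenase and DNase, and RNA was labelled with a whole-transcript kit, so each value averages over all cell types of the spleen. In such a mixture more dividing cells and more histone RNA per cell cannot be told apart. Values are log2 of the deposited RMA-type intensities. Nothing in the labels says how the mice were housed or bred, so p-values measure the spread between these arrays.

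The B cell gene Cd79a lay between 11.20 and 12.34 and the T cell gene Cd3e between 8.85 and 10.06 on the log2 scale on the 8 arrays. Tcf4 was 8.18, 8.13 and 9.25 in Sle1.3/E2-2het mice, 8.67, 8.63 and 9.06 in Sle1.3 mice, and 9.02 and 8.80 in WT mice. The array labelled Sle1.3/E2-2het replicate 3 thus had the highest Tcf4 of the 8, against its label, and whether the probes lie in the altered part of the gene is not given in the sources used here. The third arrays of the Sle1.3/E2-2het and Sle1.3 groups stood apart, with lowest intensities of 11.2 and 10.9 against 4.57 to 5.11 on the other 6. They are called the second array set here, and the first set holds 2 arrays of each genotype. Results of the first set alone are given below, since they leave out both arrays that go against a label. Over all 17557 rows tested, second-set arrays lay at a median of 0.20 (Sle1.3/E2-2het) and 0.21 (Sle1.3) above the WT mean, and the other Sle1.3/E2-2het and Sle1.3 arrays at -0.07 to -0.04. Xist, the X-inactivation RNA of females, was 3.79, 4.29 and 11.82 in Sle1.3/E2-2het mice, 10.77, 10.68 and 11.90 in Sle1.3 mice, and 4.12 and 3.75 in WT mice. The label of Sle1.3 replicate 3 says male, against this value, and the other 7 arrays match their labelled sex. By Xist, Sle1.3 against WT also sets females against males, and sex and genotype cannot be told apart within those groups.

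The single-gene rows comprised 5 of H1, 5 of H2A, 11 of H2B, 3 of H3 and 7 of H4. Of these, 23 lie on chromosome 13, 4 on chromosome 3, 3 on chromosome 11 and 1 on chromosome 6. The several-gene rows comprised 3 H2B rows naming 14 genes, 4 H2B rows naming 15, 10 H3 rows naming 12, 5 H4 rows naming 11, 1 row of H4c17 with H4c11, and 1 row of H2bc6 with H1f4. Genes named together share probes, so these rows repeat much the same measurement. The 10 H3 rows differed by at most 0.53 on any array and correlated at 0.991 or more with each other over the 8 arrays, and 2 pairs of rows held equal values on every array. A count over rows is therefore not a count of independent genes. The low-value filter (mean log2 above 5.04, the 25th percentile) was passed by 51 of the 55 rows. H1f6, H2ac8, H3c7 and H3c15 did not pass and were not tested.

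Promoters are shown for 7 genes that have a row, or share one, in the results below, with the histone promoter elements found in each. Each window runs from 250 bases before to 50 after the start site, in the gene's own direction, from RefSeq on GRCm38.p6. Capitals mark TATAAA (the TATA box), CCAAT, ATTTGCAT (the octamer bound by Oct-1) and AAACACA (the H1 box), each searched on both strands.
H1f1, chr13:23763418-23763717, plus strand: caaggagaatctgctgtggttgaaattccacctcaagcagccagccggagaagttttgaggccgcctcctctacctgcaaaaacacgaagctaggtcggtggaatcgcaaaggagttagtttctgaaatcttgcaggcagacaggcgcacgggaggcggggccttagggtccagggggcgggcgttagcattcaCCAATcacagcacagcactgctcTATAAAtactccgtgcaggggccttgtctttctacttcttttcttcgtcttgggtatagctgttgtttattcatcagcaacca
H1f5, chr13:21780576-21780875, minus strand: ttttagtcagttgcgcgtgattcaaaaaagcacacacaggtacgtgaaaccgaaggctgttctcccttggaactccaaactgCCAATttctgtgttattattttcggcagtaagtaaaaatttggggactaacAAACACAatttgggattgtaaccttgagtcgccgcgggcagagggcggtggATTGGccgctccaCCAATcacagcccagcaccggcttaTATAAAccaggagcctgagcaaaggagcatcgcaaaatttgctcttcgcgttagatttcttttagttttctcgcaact
H1f2, chr13:23738557-23738856, plus strand: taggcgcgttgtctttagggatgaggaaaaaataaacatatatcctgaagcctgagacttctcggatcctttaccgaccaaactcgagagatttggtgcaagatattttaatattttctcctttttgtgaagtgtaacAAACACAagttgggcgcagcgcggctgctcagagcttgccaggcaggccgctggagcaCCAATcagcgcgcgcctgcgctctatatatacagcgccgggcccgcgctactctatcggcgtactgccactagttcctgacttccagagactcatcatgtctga
H2ac4, chr13:23750838-23751137, plus strand: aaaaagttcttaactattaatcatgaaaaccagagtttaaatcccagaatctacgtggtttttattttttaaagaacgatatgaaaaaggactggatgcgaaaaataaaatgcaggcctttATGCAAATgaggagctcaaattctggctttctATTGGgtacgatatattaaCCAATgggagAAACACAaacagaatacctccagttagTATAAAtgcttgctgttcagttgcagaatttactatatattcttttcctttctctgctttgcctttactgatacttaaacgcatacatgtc
H2bc3, chr13:23746484-23746783, plus strand: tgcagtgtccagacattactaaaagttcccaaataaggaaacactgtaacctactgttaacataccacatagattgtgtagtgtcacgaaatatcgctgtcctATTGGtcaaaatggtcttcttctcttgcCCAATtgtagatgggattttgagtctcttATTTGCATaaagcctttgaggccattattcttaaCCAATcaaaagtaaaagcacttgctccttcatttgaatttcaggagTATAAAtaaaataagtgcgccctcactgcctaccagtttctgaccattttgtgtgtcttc
H3c2, chr13:23752095-23752394, plus strand: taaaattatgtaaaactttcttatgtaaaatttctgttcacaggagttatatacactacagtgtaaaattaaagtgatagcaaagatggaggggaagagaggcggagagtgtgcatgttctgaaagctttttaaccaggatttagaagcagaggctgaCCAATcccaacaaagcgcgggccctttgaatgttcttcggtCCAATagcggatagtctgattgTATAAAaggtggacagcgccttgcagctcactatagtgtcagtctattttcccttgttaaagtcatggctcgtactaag
H4c6, chr13:23551619-23551918, minus strand: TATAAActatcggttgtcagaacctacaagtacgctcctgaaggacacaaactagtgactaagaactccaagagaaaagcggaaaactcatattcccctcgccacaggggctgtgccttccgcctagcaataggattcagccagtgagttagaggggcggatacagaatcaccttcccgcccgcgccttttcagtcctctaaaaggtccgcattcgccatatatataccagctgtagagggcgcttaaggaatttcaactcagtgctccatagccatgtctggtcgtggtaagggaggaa
The first 3 are H1 genes, the next pair encode H2A and H2B, H3c2 stands for the genes named on the 12-gene H3 rows, and H4c6 is an H4 gene. The window of H1f5 held the H1 box 117 bases before the start and that of H1f2 112 bases before it, whereas the window of H1f1 held no AAACACA. H1f1 and H1f5 held TATAAA 33 and 28 bases before the start, and H1f2 held none. In H4c6 the search matched only at the first base of the window, 250 bases before the start. These are matches of letters, and no match says only that these letters are not in the window.

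RefSeq windows were found for 49 of the 55 genes, 50 windows in all. CCAAT was held by 82% of them, against 37.4% of all 32851 promoter windows in the table, and TATAAA by 56%, against 13.6%. The octamer was held by 22% against 1.74%, and the H1 box by 18% against 7.18%. The families differed in these elements. CCAAT was in every H1, H2A, H2B and H3 window (6, 5, 17 and 10) and in 3 of 12 H4 windows. The octamer was in 4 of 5 H2A and 7 of 17 H2B windows and in 0 of the 6 H1, 10 H3 and 12 H4 windows. The H1 box was in 5 of 6 H1, 2 of 5 H2A and 2 of 17 H2B windows and in 0 of the H3 and H4 windows. Windows of 3 H2A genes overlapped that of an H2B gene on the opposite strand (H2ac1 with H2bc1, H2ac8 with H2bc8, H2ac15 with H2bc15), so each such pair shares promoter DNA.

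Sle1.3 against WT asks how the lupus-prone background differs from control spleen. Histone RNA was higher in Sle1.3 spleens across all 5 families. Of the 51 rows tested, 26 rose and 0 fell in limma at an adjusted p under 0.05, where 5.2% of all rows tested rose and 3.51% fell. Before adjustment, that is at an unadjusted p under 0.05, 43 were higher (background 12.6%) and 0 lower (background 12.1%). The 55 rows had a median log2 difference of 0.80, against 0.04 over all rows tested. Sle1.3 and WT arrays did not overlap in 49 of the 51 rows, with Sle1.3 higher, as in 23.8% of all rows. On single arrays the median deviation of the 55 rows from the WT mean was 0.77, 0.59 and 1.17 in Sle1.3 mice and 0.06 and -0.06 in WT mice.

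**Figure D1:**
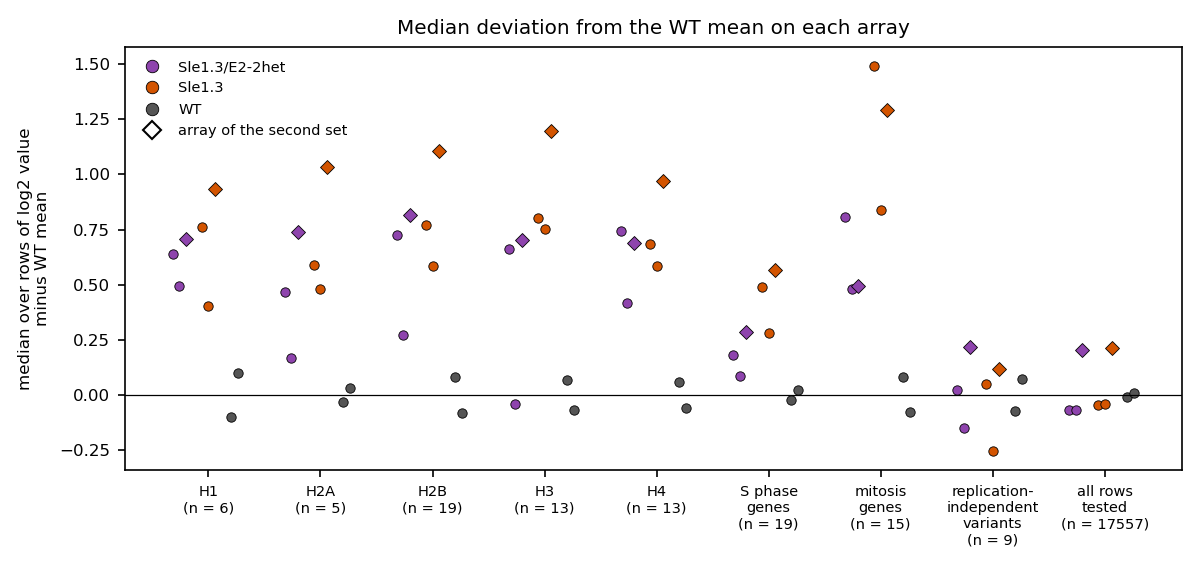
Median over the rows of each set of the log2 value minus the WT mean, 1 point per array (vertical axis, log2 units). Groups stand side by side within each set, diamonds mark second-set arrays, and n is the number of rows. The Sle1.3 arrays of all 5 histone families lie between 0.40 and 1.20, above the WT arrays, while those of the replication-independent variants lie between -0.25 and 0.12 and those of all rows tested between -0.04 and 0.21.

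Among the linker histones, which bind DNA between nucleosomes, H1f1 (encoding H1.1) and H1f5 (encoding H1.5) differed most. H1f1 was 9.97, 9.53 and 9.72 in Sle1.3 mice, against 7.88 and 8.08 in WT mice, and its log2 difference was 1.76 (SE 0.31, 3.39-fold, limma adjusted p = 0.00758). H1f5 was 9.32, 9.33 and 10.03 in Sle1.3 mice, against 7.72 and 8.11 in WT mice, a difference of 1.64 (SE 0.28, adjusted p = 0.00660). All 3 Sle1.3 arrays lay above both WT arrays in each gene by over 1 log2 unit. H1f3 (H1.3) rose by 0.76 (SE 0.21, adjusted p = 0.0490). H1f2 (H1.2) did not follow: it was 9.76, 9.22 and 9.50 in Sle1.3 mice, against 9.64 and 9.84 in WT mice, a difference of -0.25 (95% interval -0.73 to 0.23, adjusted p = 0.500). Its groups overlapped. H1f4 (H1.4) was measured only on the row it shares with H2bc6, at 0.41 (adjusted p = 0.257).

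Core histones that rose on single-gene rows were H2ac4, H2ac15, H2bc3, H2bc14, H2bc9 and H4c6. H2ac4, an H2A gene, was 5.81, 6.02 and 6.53 in Sle1.3 mice, against 4.48 and 4.80 in WT mice, a difference of 1.48 (SE 0.26, adjusted p = 0.00671). H2bc3, an H2B gene, was 9.20, 9.10 and 9.97 in Sle1.3 mice, against 7.43 and 8.28 in WT mice, a difference of 1.57 (SE 0.30, adjusted p = 0.00984). The WT arrays of H2bc3 lay well apart, and all Sle1.3 arrays were above the higher of them. H4c6, an H4 gene, was 9.68, 9.68 and 10.20 in Sle1.3 mice, against 8.79 and 8.54 in WT mice, a difference of 1.19 (SE 0.21, adjusted p = 0.00793). H2bc14 rose by 1.13 (adjusted p = 0.0113), H2bc9 by 1.00 (adjusted p = 0.0304) and H2ac15 by 0.91 (adjusted p = 0.0494). The row of H4c17 with H4c11 was 5.95, 5.72 and 6.76 in Sle1.3 mice, against 4.69 and 4.61 in WT mice, a difference of 1.49 (SE 0.35, adjusted p = 0.0273). In these rows the Sle1.3 arrays were all above the WT arrays, and the second-set Sle1.3 array was the highest of the 3. The WT means of H2ac4 (4.64) and of the row of H4c17 with H4c11 (4.65) lay under the filter value of 5.04. Both rows passed the filter through the arrays of the other groups, so the size of their differences rests on low WT values.

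H3 was measured almost wholly on the rows naming 12 genes. Their median was 12.93, 12.90 and 13.35 in Sle1.3 mice, against 12.20 and 12.05 in WT mice. The differences of the 10 rows lay between 0.91 and 0.97 (1.87- to 1.96-fold, adjusted p 0.0375 to 0.0555), and 8 rose. The 5 H4 rows naming 11 genes differed by 0.67 to 0.79 (adjusted p 0.0311 to 0.0914), and 3 rose. The 7 H2B rows naming 14 or 15 genes differed by 0.81 to 0.92 (adjusted p 0.0368 to 0.0602), and 5 rose. All these rows had every Sle1.3 array above both WT arrays, and their calls divide on adjusted p values close to the threshold.

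By family 3 of 5 tested H1 rows rose, with 2 of 4 for H2A, 8 of 19 for H2B, 8 of 11 for H3 and 5 of 13 for H4 (the row of H2bc6 with H1f4 counts in H1 and in H2B). Of the single-gene rows 9 of 27 tested rose and of the several-gene rows 17 of 24. With the replicate number as a block the fit called 19 and 23 of them. From the values of these same arrays, that number was taken to pair Sle1.3/E2-2het with Sle1.3 arrays. It is not shown to pair WT arrays, so calls against WT gained with the block carry this limit. Same-numbered Sle1.3 and WT arrays correlated in their deviations at -0.0558 and 0.225, and Sle1.3/E2-2het and WT arrays at 0.228 and 0.11. The 18 single-gene rows that were tested and not called had differences from -0.25 (H1f2) up to that of H4c8, and 17 of them were above 0. H4c8 was 5.14, 4.94 and 6.73 in Sle1.3 mice, against 4.19 and 4.43 in WT mice (2.45-fold, SE 0.51 on the log2 scale, adjusted p = 0.145, and 0.00829 with the replicate number as a block). Its second-set Sle1.3 array lay well above the other 2. Its WT mean (4.31) lay under the filter value of 5.04, so H4c8 passed the filter through the arrays of the other groups. Among single-gene rows of chromosome 13, 9 of 20 tested rose (median of all 23 rows 0.76). On chromosome 3, 0 of 3 tested rose (1 before adjustment, median of 4 rows 0.22), and on chromosome 11, 0 of 3 (3 before adjustment, median 0.52). The difference between clusters was not tested. Both testis-type genes of a divergent pair differed alike, H2ac1 by 0.62 and H2bc1 by 0.61. Neither passed in limma (adjusted p = 0.176 and 0.0737), though H2bc1 did with the replicate block (adjusted p = 0.00709). The WT mean of H2bc1 (4.98) also lay under the filter value.

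H3c15 ran the other way. It was 3.98, 3.55 and 4.83 in Sle1.3 mice, against 5.24 and 6.04 in WT mice, a difference of -1.52. All Sle1.3 arrays lay below both WT arrays, but the row has a mean log2 of 4.70, failed the low-value filter and was not tested. It was named after its values were seen, as was H4c8, and so was the contrast of H1f2 with other H1 genes. H1f2 also belongs to a listed set of histone genes with polyadenylated transcripts in human cells. Of the 3 on single-gene rows 0 were called (0 before adjustment, 1 higher with the replicate block, median 0.12). Just outside the rule, 2 H2A rows that also name H2ax, or H2ax and H2aj, differed by 0.83 and 0.62, and a row of H2aw with Trim17 by 0.40.

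**Figure D2:**
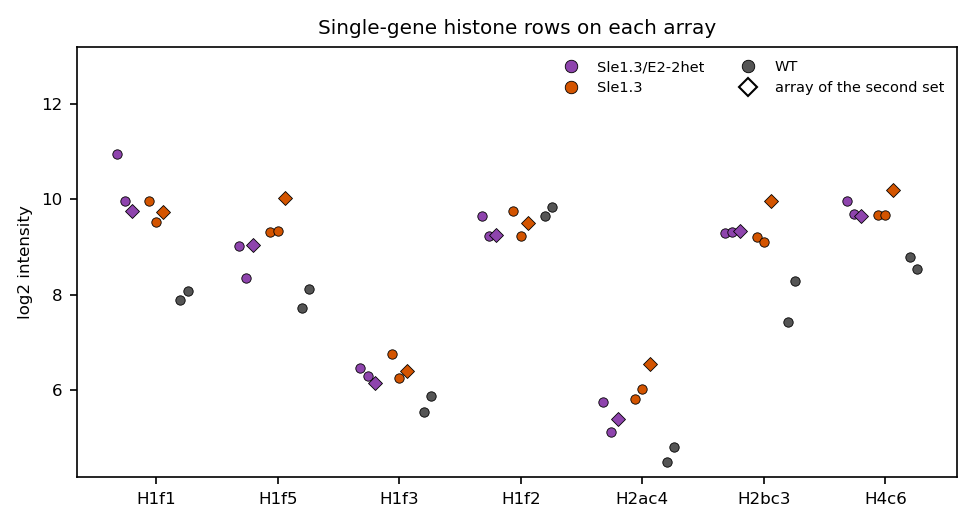
Log2 intensity of 7 single-gene rows on each array (vertical axis), with Sle1.3/E2-2het, Sle1.3 and WT side by side for each gene and diamonds for second-set arrays. Levels compare within a gene and not between genes. WT arrays lie lowest in every gene shown except H1f2, where the groups overlap, and H1f1 is highest in Sle1.3/E2-2het replicate 1.

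Genes that switch on, process or carry histones gave 0 calls in the fit without a block. Of 14 genes for stem-loop 3′ processing and decay 0 were called in limma (1 higher and 4 lower before adjustment), with a median of -0.23. Slbp was 8.35, 8.51 and 8.19 in Sle1.3 mice, against 8.55 and 8.42 in WT mice (-0.14, adjusted p = 0.691). Lsm1, part of the ring that starts decay of histone mRNA, was at -0.81 (adjusted p = 0.0951). Of 8 genes for histone gene transcription 0 were called (1 higher and 2 lower before adjustment, median -0.06), and Npat was at -0.53 (adjusted p = 0.0844). Of 11 chaperones, which carry histones to DNA, 0 were called (1 higher and 1 lower before adjustment), with Asf1b, the form tied to dividing cells, at 1.11 (SE 0.34, adjusted p = 0.0688). Of 8 replication-independent variants tested 0 were called (0 before adjustment), and the median of all 9 was 0.04. With the replicate number as a block Lsm1 (adjusted p = 0.00204), Npat (0.0101) and Asf1b (0.00602) passed in these directions. The block called 1 higher and 5 lower of the processing genes, 2 and 2 of the transcription genes, 1 and 2 of the chaperones, 0 and 1 of the variants, and 10 higher and 1 lower of the 19 S phase genes described next.

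Mitosis genes mostly rose, and fewer S phase genes passed. Of 15 mitosis genes 12 rose (median 1.22), with Mki67, a marker of dividing cells, at 1.68 (SE 0.25, adjusted p = 0.00317) and Ccna2, cyclin A2, at 1.67 (adjusted p = 0.00409). Of 19 S phase genes 3 rose (9 higher and 1 lower before adjustment), and 17 were above 0 (median 0.40). Rrm2, a ribonucleotide reductase subunit, was at 1.35 (adjusted p = 0.00434) and Tyms, thymidylate synthase, at 1.19 (adjusted p = 0.00364). Markers of neutrophil precursors rose in 8 of 8 (median 3.44), and their summed linear intensity was 6471 to 20460 in Sle1.3 mice, against 1045 to 2095 in WT mice. Germinal centre B cell markers rose in 2 of 5 (summed 975 to 1485 in Sle1.3 mice, against 805 to 854 in WT mice), with Gcsam at 1.61 and Mybl1 at 1.35. Erythroid precursor markers were called in 0 of 6 (2 higher before adjustment), with sums of 546 to 772 in Sle1.3 mice and 627 to 636 in WT mice. Plasma cell markers were called in 0 of 5 (1 higher before adjustment), with sums of 6004 to 8119 in Sle1.3 mice and 4892 to 5688 in WT mice. Natural killer cell markers fell in 3 of 5 (median -1.04), with sums of 828 to 923 in Sle1.3 mice and 1715 to 1896 in WT mice. The lowest single value among the markers of these 5 cell types was 23.4, of the neutrophil precursor marker Prtn3 in WT replicate 2. On the log2 scale it was 4.55, under the filter value of 5.04. The arrays carry no background measure, so what such low values hold above background is unknown. The part of these cells in the histone differences was not tested.

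The count of 26 changed when single arrays were left out or a sex term was added. Without WT replicate 1 or WT replicate 2 it was 1 each time. Without Sle1.3 replicates 1, 2 and 3 it was 6, 17 and 7, and without Sle1.3/E2-2het replicate 1 it was 14. The count rose when another Sle1.3/E2-2het array was left out. The median difference stayed between 0.67 and 0.93. The share of all rows called is not given for these fits, so their counts have no background. The replicate block gave 42 calls (background 11.4%) and the first array set alone 34 (background 7.77%), which held all 26. With the block 3 H1, 2 H2A, 14 H2B, 10 H3 and 13 H4 rows rose, and 0 of the 26 were lost. Labelled sex in the fit left 6 (background 2.64%), with a median of 0.87. That term uses the label of Sle1.3 replicate 3 that goes against Xist, so it is not a term for sex as read from Xist. With sex as read from Xist in the fit, which rests on the single female among the Sle1.3/E2-2het mice, 1 row was called higher (background 1.65%). It was H1f1 (2.46, adjusted p = 0.0176), and the median was 0.54. That female is also the second-set array of its group and the array whose Tcf4 goes against its label. Under this term sex and array set therefore cannot be told apart. Under this term H2ac4 (1.53), H2bc3 (1.55), H4c6 (1.37) and H1f3 (0.99) kept differences of about the same size or larger and did not pass. The named 12-gene H3 rows were at 0.52 to 0.64 and the row of H4c17 with H4c11 at 0.64, smaller than without the term. Also smaller were H1f5 (1.29), H2bc14 (1.06), H2bc9 (0.81), H2ac15 (0.43) and the named 14-gene H2B row (0.62). The named 11-gene H4 rows were at 0.70 and 0.73.

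Sle1.3/E2-2het against Sle1.3 sets the mice haplodeficient for E2-2 against mice of the same lupus-prone background. No histone row passed: limma called 0 of 51, as it called 0% of all rows tested, and before adjustment it had 5 lower (background 2.56%) and 0 higher (background 1.81%). Most rows were somewhat lower, with 49 of 55 below 0 and a median of -0.23, against 0.01 over all rows tested. On single arrays the median deviation from the WT mean was 0.67, 0.27 and 0.73 in Sle1.3/E2-2het mice, compared with 0.77, 0.59 and 1.17 in Sle1.3 mice, so the groups overlapped in this summary. Values of the groups did not overlap in 12 rows, with Sle1.3/E2-2het lower (23.5% of the 51, against 4.18% of all rows tested). They were H1f5, H2ac4 and the 10 H3 rows. Those H3 rows share probes, so the 23.5% counts much the same measurement 10 times.

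H1f5 was 9.01, 8.35 and 9.04 in Sle1.3/E2-2het mice, compared with 9.32, 9.33 and 10.03 in Sle1.3 mice, a difference of -0.76 (SE 0.25, adjusted p = 0.704). H2ac4 was 5.74, 5.12 and 5.38 in Sle1.3/E2-2het mice, compared with 5.81, 6.02 and 6.53 in Sle1.3 mice, a difference of -0.71 (SE 0.23, adjusted p = 0.654). In both, every Sle1.3/E2-2het array was below every Sle1.3 array, by a narrow gap between the highest of the one and the lowest of the other. The median of the 10 H3 rows was 12.79, 12.08 and 12.84 in Sle1.3/E2-2het mice, compared with 12.93, 12.90 and 13.35 in Sle1.3 mice. Their differences lay between -0.51 and -0.46 (0.703- to 0.726-fold), with SE of 0.22 to 0.23 and adjusted p of 1.00. Sle1.3/E2-2het replicate 2 had the lowest H3 values, near those of the WT mice, and the other 2 lay just under the Sle1.3 arrays. The H2B rows of several genes were at -0.26 to -0.23 and the H4 rows of 11 genes at -0.16 to -0.13, and their groups overlapped. The 95% intervals over all these H2B and H4 rows ran from -0.76 to 0.30, so differences within that range were not resolved.

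**Figure D3:**
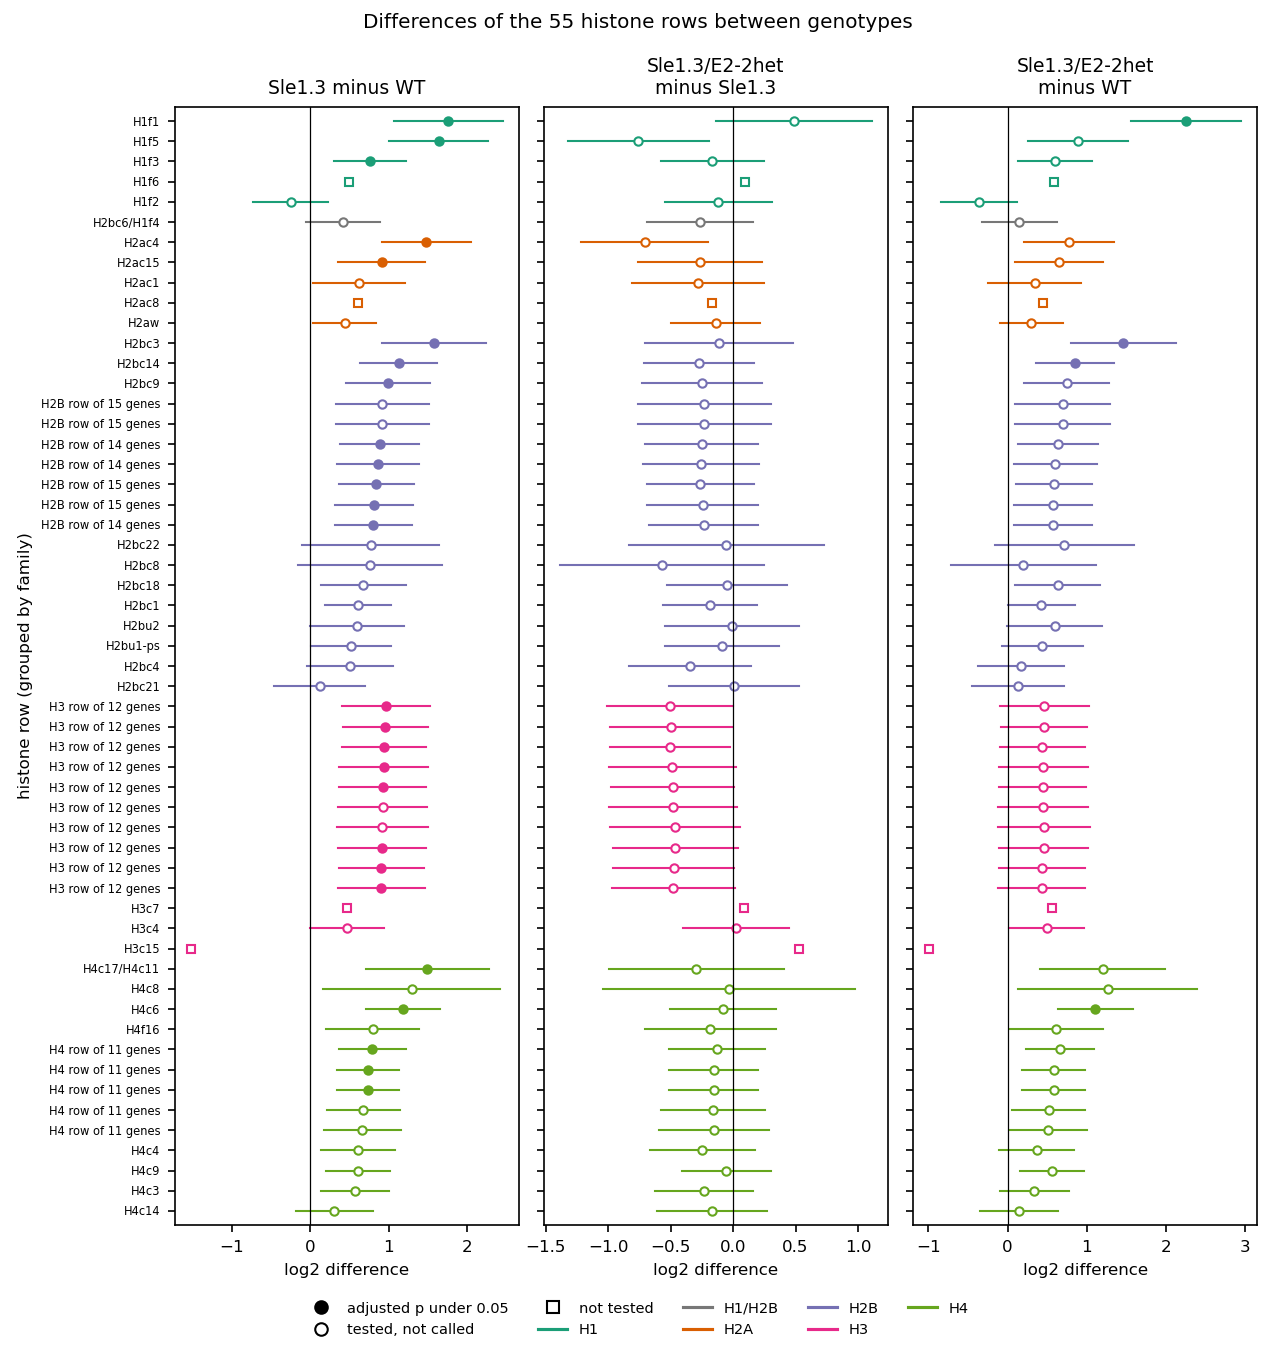
Log2 difference of each of the 55 rows (horizontal axes) with its 95% limma interval, in the panels Sle1.3 minus WT, Sle1.3/E2-2het minus Sle1.3 and Sle1.3/E2-2het minus WT. Colours mark families, filled circles rows with an adjusted p under 0.05 and squares rows not tested. The filled circles number 26, 0 and 4.

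The difference of H1f1 was above 0, unlike those of H1f2, H1f3 and H1f5. H1f1 was 10.96, 9.97 and 9.76 in Sle1.3/E2-2het mice, compared with 9.97, 9.53 and 9.72 in Sle1.3 mice, a difference of 0.49 (SE 0.28, adjusted p = 1.00). Sle1.3/E2-2het replicate 1 was the highest of all 8 arrays, and the other arrays of these groups overlapped. H1f3 differed by -0.17 and H1f2 by -0.12, and both groups overlapped. H2bc3 and H4c6, which lay far above WT in Sle1.3 mice, lay close to Sle1.3 in Sle1.3/E2-2het mice. H2bc3 was 9.29, 9.31 and 9.33 in Sle1.3/E2-2het mice (-0.12, adjusted p = 1.00) and H4c6 was 9.97, 9.70 and 9.65 (-0.08, adjusted p = 1.00). H2bc8 was 6.37, 6.06 and 7.44 in Sle1.3/E2-2het mice, compared with 6.95, 6.73 and 7.89 in Sle1.3 mice (-0.57, SE 0.37, adjusted p = 1.00). In each group of H2bc8 the second-set array was the highest.

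Sle1.3/E2-2het arrays deviated together with the Sle1.3 array of their number over all rows, and were also compared as pairs. Of the 51 rows, 27 were lower in Sle1.3/E2-2het in 3 of 3 pairs (52.9%, against 19.5% of all rows tested) and 1, H1f1, was higher in 3 of 3 (background 17.3%). Of the 27, 19 were several-gene rows that share probes and 8 named a single gene. The median within a pair was -0.05 for replicate number 1, -0.28 for number 2 and -0.35 for number 3. The number of the 55 rows below 0 was 34, 42 and 53 in that order. Number 3 is the second-set pair, in which Tcf4 was not lower in the Sle1.3/E2-2het array. H2bc8 was lower in all pairs (-0.59, -0.67 and -0.45), as was H2bc4 (-0.43, -0.28 and -0.33). With sex read from Xist in the fit the difference of H2bc8 turned to 0.25. That term rests on the second-set Sle1.3/E2-2het array, where H2bc8 was highest in its group (7.44). Sex and array set thus cannot be told apart in this change of sign. With the replicate block limma again called 0 of 51 (background 0.154% higher and 0.29% lower). Before adjustment it then had 18 lower (background 8.18%) and 1 higher (background 4.82%). The smallest adjusted p was then 0.0867, of H2bc8, followed by H1f5 at 0.103.

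**Figure D4:**
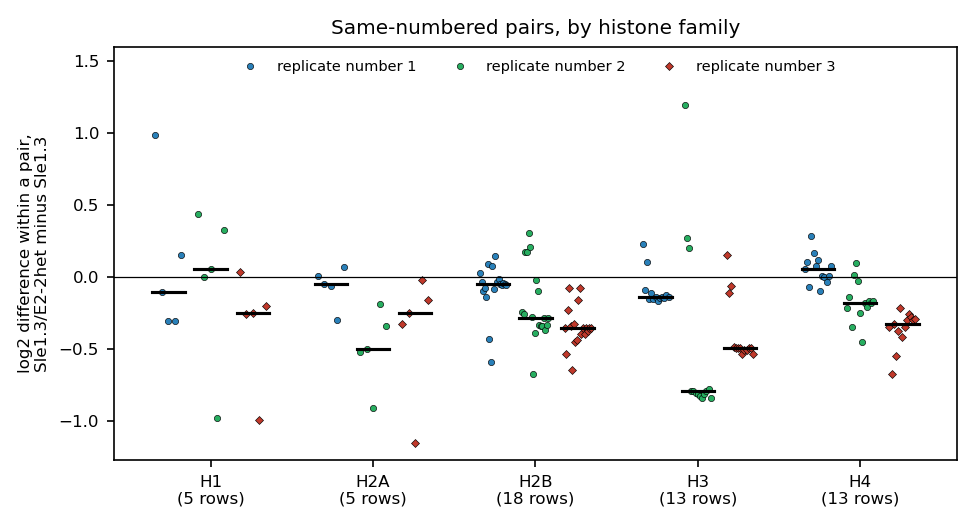
Log2 difference within each same-numbered pair, Sle1.3/E2-2het minus Sle1.3 (vertical axis), 1 point per row, by family, with bars at the median of the points and the row of H2bc6 with H1f4 left out. The H3 rows naming 12 genes lie together below 0 in all 3 pairs, at -0.16 to -0.11, -0.84 to -0.78 and -0.53 to -0.49. The highest H1 point of pair 1 is H1f1.

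The median over the 55 rows was -0.16 in the first array set, which by Xist sets males against females, and -0.35 in the second, where a female is set against a female. In that second-set pair Tcf4 was 9.25 in the Sle1.3/E2-2het array and 9.06 in the Sle1.3 array, so Tcf4 was not lower there. In the first set limma called 0 of 51 (background 0.581% higher and 0.387% lower), with 6 lower (background 7.17%) and 1 higher (background 3.79%) before adjustment. The median was -0.08 without Sle1.3/E2-2het replicate 2 and -0.09 without Sle1.3 replicate 3, and between -0.34 and -0.23 without any other single array. A genotype by array set term was called for 0 of 51 histone rows in limma, against 0.0114% of all rows tested higher and 0.444% lower. Before adjustment 2 histone rows were lower and 0 higher, where 0.854% of all rows were lower and 1.73% higher. Mitosis genes had a median of -0.57 and S phase genes of -0.23, with 0 called in either (9 and 3 lower before adjustment). The replicate block called 3 mitosis genes lower, among them Top2a (-0.86, adjusted p = 0.0376). Germinal centre B cell markers had a median of -1.58 and 0 of 5 called (4 lower unadjusted, 2 lower with the block), with sums of 564 to 634 in Sle1.3/E2-2het mice and 975 to 1485 in Sle1.3 mice. Neutrophil precursor markers had a median of -0.81 and 0 of 8 called (3 lower unadjusted), with sums of 5508 to 17656 in Sle1.3/E2-2het mice and 6471 to 20460 in Sle1.3 mice. Erythroid precursor markers ran the other way, with a median of 0.49, 0 of 6 called (3 higher unadjusted, 2 with the block) and sums of 1283 to 2487 in Sle1.3/E2-2het mice, compared with 546 to 772 in Sle1.3 mice. Natural killer cell markers had a median of 0.63 and 0 of 5 called (3 higher unadjusted, 1 with the block), with sums of 923 to 1430 in Sle1.3/E2-2het mice and 828 to 923 in Sle1.3 mice. The part of these cells in the histone values was not tested. Slbp was at -0.07 and Npat at -0.04 (adjusted p = 1.00 each).

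Sle1.3/E2-2het against WT shares its WT arrays with the first comparison and is given for the levels it adds. Of 51 rows 4 rose and 0 fell (background 6.12% higher and 4.54% lower), a share of 7.84% that was close to that of all rows. Before adjustment 28 were higher (background 14.7%) and 0 lower (background 15.1%). The median was 0.56, against 0.02 over all rows tested, and 33 of 51 rows had every Sle1.3/E2-2het array above both WT arrays (background 27.2%).

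The 4 rows that rose name single genes of chromosome 13. H1f1 was 10.96, 9.97 and 9.76 in Sle1.3/E2-2het mice, compared with 7.88 and 8.08 in WT mice, a difference of 2.25 (SE 0.31, 4.76-fold, adjusted p = 0.00185). H2bc14 was 10.56, 10.11 and 10.40 in Sle1.3/E2-2het mice, compared with 9.64 and 9.36 in WT mice, a difference of 0.86 (SE 0.22, adjusted p = 0.0376). H2bc3 differed by 1.46 (SE 0.30, adjusted p = 0.0140) and H4c6 by 1.10 (SE 0.21, adjusted p = 0.0104). Each had its Sle1.3/E2-2het arrays all above WT. H1f5 was at 0.88 (SE 0.28, adjusted p = 0.0713) and H2ac4 at 0.77 (SE 0.26, adjusted p = 0.0789). Once the replicate number was blocked both passed (adjusted p = 0.0284 and 0.0459), though the number is not shown to pair WT arrays. The WT mean of H2ac4 lay under the filter value, as given above. The 10 H3 rows were at 0.43 to 0.46 (adjusted p 0.231 to 0.267), and in each the groups overlapped. The H4 rows of 11 genes were at 0.51 to 0.66 (adjusted p 0.0535 to 0.151) and the H2B rows of several genes at 0.57 to 0.69 (adjusted p 0.0962 to 0.122). All these H4 and H2B rows had groups that did not overlap. H1f2 was again not higher, at -0.37 (SE 0.22, adjusted p = 0.273).

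With the replicate block 28 rows rose (background 14.5%), of which 3 were of H1, 2 of H2A, 13 of H2B, 0 of H3 and 10 of H4. Before adjustment and without the block, 1 H3 row was higher. Without the second-set arrays, that is in the first array set, which here compares males with males, 20 rose (background 12.7%). With the array set as a block 17 rose (background 12.4%). Without WT replicate 1 or 2 the count was 1 and 2, and without Sle1.3 replicate 3 it was 10. For these fits too the share of all rows called is not given. Mitosis genes rose in 4 of 15 (median 0.67, Ccna2 1.19, adjusted p = 0.0199) and S phase genes in 2 of 19, with 1 lower (Rrm2 1.19, adjusted p = 0.00756). Ccne1, the cyclin E1 that acts with CDK2 on NPAT, rose by 0.77 (adjusted p = 0.0429), and Upf1, an RNA helicase of mRNA decay, fell by 0.95 (adjusted p = 0.0377). Erythroid precursor markers rose in 4 of 6 (sums 1283 to 2487 in Sle1.3/E2-2het mice, compared with 627 to 636 in WT mice), with Slc4a1, the anion exchanger of red cells, at 2.48 and Alas2, the heme synthesis enzyme of red cell precursors, at 2.30. Neutrophil precursor markers rose in 7 of 8 (sums 5508 to 17656 in Sle1.3/E2-2het mice, compared with 1045 to 2095 in WT mice). Germinal centre B cell markers were called in 0 of 5 (2 lower before adjustment, 3 lower with the block), with 5 of 5 below 0, a median of -0.66 and sums of 564 to 634 in Sle1.3/E2-2het mice and 805 to 854 in WT mice. Natural killer cell markers fell in 2 of 5 (sums 923 to 1430 in Sle1.3/E2-2het mice, against 1715 to 1896 in WT mice). They did not move as a set, since 2 of the 5 were above 0, with 1 higher before adjustment. Their part in the histone values was not tested.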

How the data were processed

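Per the submitters' processing notes, the authors used RMA and Affymetrix Expression Console, and the versions and annotation build are not given in the sources used here. The deposited table holds 1 intensity per probe set and array on a linear scale, after processing by the authors, with no detection calls. Log2 was taken here. Probe sets were named from the platform annotation, and older symbols came from RefSeq (GRCm38.p6). Of the 35556 rows, 12146 name no listed gene and entered no test.

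Rows with a gene and a mean log2 above the 25th percentile (17557) were fitted in limma 3.58.1 (R 4.3.3, lmFit and eBayes, two-sided), with group as the only term over all 8 arrays and 5 residual degrees of freedom. P-values were adjusted over these rows by the Benjamini-Hochberg method, and a row was called under 0.05. Labelled sex was left out because it differs between array sets, with the sexes swapped between the Sle1.3 genotypes. As found afterwards, 1 label also goes against Xist. The scripts were tested on simulated data.

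Sle1.3/E2-2het arrays and the Sle1.3 array of their number deviated from their group means together (correlations over rows 0.516, 0.365 and 0.502, against -0.405 to 0.074 for other pairs), so the replicate number was taken to pair them. The labels give no reason for this pairing, which was read from the same arrays to which it was applied. Number 3 joins the second-set arrays. WT has 2 numbers, and the number is not shown to pair WT arrays. A further fit took the number as a block.

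The members and gene lists were chosen with earlier results of these data known. Lists were read on single-gene rows, and a member outside these rows was not used. Named rows were, per family and comparison, up to 4 called with the largest difference, or the 2 with the smallest p, and per list up to 2. Slbp and Npat were also given in every comparison for their role. Protein sequences were not analysed here. Array number limits the precision.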

Additional observations from a re-analysis of the deposited data

How the results depend on the processing

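No histone row was called lower in any comparison under any alternative tried, and no median over the 55 rows changed sign. The histone calls for Sle1.3 against WT (26) became 8 with no filter on low values, 7 with 1 row per gene, 13 over all rows of the table, 6 with labelled sex (median 0.87, against 0.80 without it), 42 with the replicate block, and 1 to 35 when a replicate was left out. The fit with 1 row per gene holds single-gene rows alone, of which the main fit called 9. For counts in this section without a background above, the share of all rows called is not given. Alternatives chosen after seeing the data gave 9 (single-gene rows alone) and 1 (sex read from Xist, median 0.54). For Sle1.3/E2-2het against WT (4) the calls became 7 with arrays centred on their median, 8 with quantile normalization, 7 with 16 added before log2, 28 with the replicate block, 17 when array set was blocked, 20 in the first array set alone, and 1 to 10 when a replicate was left out. In this comparison the median of all rows tested was -0.14 after centring, against 0.02 without it. Sle1.3/E2-2het against Sle1.3 stayed at 0 calls throughout, the replicate block included, with medians of -0.34 to -0.08 when a replicate was left out. With sex read from Xist, H2ac15 (0.0581) and H2bc8 (0.25) turned positive there, under a term that cannot be told apart from array set. For the named rows of Sle1.3 against WT, 234 of the alternative values kept the call and 113 lost it. The cause of these shifts was not tested. The arrays carry no background measure, so what low rows such as H3c15 hold above background is unknown.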
